A study of Mus musculus with 72 samples.

Results

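The insulin receptor, its adaptors, the kinases behind them, the FOXO transcription factors they restrain and the glucagon receptor were followed through 72 liver libraries as 8 genes: Insr, Irs1, Irs2, Pik3r1, Akt2, Foxo1, Foxo3 and Gcgr. They were chosen by symbol, as the features of the count table whose Ensembl identifiers carry these names, and they make up 8 of the 55573 genes in the table. Each of the 8 had enough counts to be tested in every comparison.

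The study crossed a hepatocyte clock deletion with the absence of microbes and sampled the liver around the day. Mice of the wild type group (WT) were Bmal1 fl/fl, with loxP sites around part of a gene for the activating arm of the circadian clock, and knockout mice (LKO) were Bmal1 fl/fl with Albumin-Cre, so that both genotypes carried the floxed allele and the recombinase was driven by a promoter active in hepatocytes. Each genotype was kept either specific pathogen free (SPF) with its microbiota or germ free (GF) in isolators, the GF colony having been rederived from the SPF line. All were adult males on a C57BL/6 background (C57BL/6J in the study's methods), housed singly under a 12:12 light and dark cycle with autoclaved chow always available. Whole liver was taken at zeitgeber times (ZT, hours after lights on) 2, 6, 10, 14, 18 and 22 from 3 mice per group and time, giving 18 libraries in each of the 4 groups, written SPF WT and SPF LKO, GF WT and GF LKO.

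Insulin binds a receptor tyrosine kinase on the hepatocyte, which phosphorylates the adaptors IRS1 and IRS2. These recruit PI3-kinase, whose lipid product brings AKT to the membrane, and AKT phosphorylates FOXO proteins and so keeps them out of the nucleus, where they would drive genes of glucose production and of insulin sensitivity. Glucagon acts in the opposite sense through its own receptor, cyclic AMP and protein kinase A. RNA levels do not report the phosphorylation by which most of this pathway works.

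On GRCm38, Insr (ENSMUSG00000005534) lies on the minus strand at chr8:3122061-3279617, Irs1 (ENSMUSG00000055980) on the minus strand at chr1:82233101-82291416 and Irs2 (ENSMUSG00000038894) on the minus strand at chr8:10984681-11008458. Pik3r1 (ENSMUSG00000041417), for a regulatory subunit of PI3-kinase, lies on the minus strand at chr13:101680563-101768217, and Akt2 (ENSMUSG00000004056), for the AKT isoform prominent in insulin-responsive tissues, on the plus strand at chr7:27591552-27640826. Foxo1 (ENSMUSG00000044167) is on the plus strand at chr3:52268336-52353221, Foxo3 (ENSMUSG00000048756) on the minus strand at chr10:42181841-42276755 and Gcgr (ENSMUSG00000025127) on the plus strand at chr11:120530699-120538986. All are protein-coding genes, and the values are counts over their exons. The counting did not use the strand, and Gm11789, which overlaps Gcgr on the opposite strand, was given 16.4% as many counts as Gcgr. Reads that overlapped exons of both genes were not counted. The level of Gcgr therefore leaves such reads out, and how many there were is not known. Genes overlapping the other members held at most 0.276% as many counts.

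The sequence before the start of Irs1 and Irs2 is shown because Bmal1, the gene deleted in LKO mice, encodes a factor that binds E-boxes, and these 2 adaptor genes alone among the members with a window had the E-box letters CACGTG there. RefSeq windows (GRCm38.p6) of 250 bases before the transcript start were found for 7 of the 8 genes, 11 windows in all, and 2 of the 11 held CACGTG, which reads the same on both strands and stood in 6.02% of 32851 such windows of the genome. The window of Irs1 is chr1:82291440-82291689 on the minus strand and that of Irs2 chr8:11008930-11009179 on the minus strand, both written 5′ to 3′ with the E-box in capitals.
Irs1: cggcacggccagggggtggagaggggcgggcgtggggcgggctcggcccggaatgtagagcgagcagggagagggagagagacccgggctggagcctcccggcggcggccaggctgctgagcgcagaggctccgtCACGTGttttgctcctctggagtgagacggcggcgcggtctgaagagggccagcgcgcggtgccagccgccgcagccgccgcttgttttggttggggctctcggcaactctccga
Irs2: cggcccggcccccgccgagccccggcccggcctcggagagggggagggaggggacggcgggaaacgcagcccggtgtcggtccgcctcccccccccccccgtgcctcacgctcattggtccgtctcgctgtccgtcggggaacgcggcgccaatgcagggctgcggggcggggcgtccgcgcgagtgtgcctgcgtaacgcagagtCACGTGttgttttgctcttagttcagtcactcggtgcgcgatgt
Counted from the RefSeq start, the E-box begins at -115 in Irs1 and at -44 in Irs2. These starts lie upstream of those of the Ensembl genes that were counted, most so for Irs2. Its window begins at 11008930 and the counted gene ends at 11008458, against 82291440 and 82291416 for Irs1. Both E-boxes are therefore further from the Ensembl starts. The forkhead motif GTAAACA (3.17% of windows), the D-box TTATGTAA (0.819%) and the site AGGTCA bound by ROR and REV-ERB factors (14.0%), each searched on both strands, were in none of the 11 windows, which says only that these letters are not in this stretch.

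Libraries held 17369927 to 22076113 counts. Levels are given below as counts per 1000000 after TMM scaling (CPM), and changes as log2 fold changes with their standard errors from the quasi-likelihood test of edgeR, with p adjusted by Benjamini-Hochberg over all genes tested and called at 0.05. The hepatocyte markers Apoa1, Ttr, Cps1, Tat and Alb were abundant in every library, the 5 lymphocyte markers each had a median under 1 CPM, and the summed pancreas markers did not pass 1.757 CPM. Alb differed between genotypes, with medians of 83700 CPM in SPF WT, 36400 in SPF LKO, 104000 in GF WT and 32200 in GF LKO mice, whereas Apoa1, at 7920, 8120, 11900 and 11900 CPM, had nearly the same median in either genotype. Summed over the 5 hepatocyte markers, the medians were 104800 CPM in SPF WT, 55910 in SPF LKO, 131700 in GF WT and 58100 in GF LKO mice, and 1 of the 5 was called lower in SPF LKO and 2 in GF LKO mice. Alb made up most of these sums. In the same order of groups the medians were 5560, 5380, 6860 and 5890 CPM for Ttr and 4090, 4760, 5820 and 5970 for Cps1. For Tat they were 2110, 1290, 2750 and 2070 CPM. Summed cholangiocyte markers had medians of 53.3 CPM in SPF WT, 70.3 in SPF LKO, 44.5 in GF WT and 91.0 in GF LKO mice, with 1 of 5 called higher in SPF LKO and 2 in GF LKO mice. Of 5 Kupffer cell markers 3 were called lower in SPF LKO and 1 in GF LKO mice, with summed medians of 238.6 CPM in SPF WT, 203.7 in SPF LKO, 216.1 in GF WT and 180.2 in GF LKO mice. With germ free status 4 of the 5 hepatocyte markers were called higher in WT mice, and 3 higher and 1 lower in LKO mice, while both neutrophil markers tested were lower in either genotype. The part of these markers in the results below was not tested. In whole liver a lower level cannot be told apart from fewer of the cells that express a gene.

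Clock genes went against the labels in 4 libraries. Npas2, a partner gene of Bmal1 that is high when Bmal1 is lost, was at 0.22 CPM in replicate 2 labelled SPF LKO at ZT14 and at 25.2 and 24.0 in the other two mice. It was at 1.83 CPM in replicate 1 labelled SPF LKO at ZT18, whose companions had 36.4 and 27.6. Nr1d1, for the repressor REV-ERB alpha, was at 84.8 CPM in replicate 3 labelled SPF WT at ZT14, against 8.55 and 3.07, and at 9.39 CPM in replicate 3 labelled GF WT at ZT6, against 51.1 and 49.1. The 5 hepatocyte markers summed to 105000 CPM in the first SPF LKO library and 124000 in the second, against at most 72700 in the other 16. They summed to 81900 CPM in the SPF WT library (range of its group 78620 to 130400) and 139000 in the GF WT one (110900 to 166000). All 72 libraries were kept, and values without the ones in doubt are given beside the called results over all times that include them.

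Per kilobase of exon, the glucagon receptor gene stood far above the others, with a mean of 72.2 CPM per kb over the 72 libraries. Insr followed at 12.7, and Pik3r1 at 8.74, Akt2 at 7.52, Irs2 at 7.07, Foxo3 at 6.71 and Foxo1 at 5.43 CPM per kb lay close together. Irs1 was lowest, at 1.74. The genes also differed in how much they varied between mice of the same group and time. The coefficient of variation among 3 replicates, taken as a median over the 24 combinations of group and ZT, was 36.1% for Irs2, 24.8% for Foxo1 and 19.9% for Irs1, and 5.68% for Akt2. Foxo3 had 15.2%, Pik3r1 13.7%, Gcgr 8.31% and Insr 7.64%. Between the highest and the lowest of the 24 means the level differed 7.41-fold for Irs2, 2.66-fold for Irs1, 2.58-fold for Foxo3, 2.40-fold for Pik3r1 and 2.20-fold for Foxo1, and only 1.66-fold for Insr, 1.37-fold for Gcgr and 1.28-fold for Akt2. When the 24 means of a gene were put in order, the replicates of 1 of 23 neighbouring pairs stood apart for Irs2. For each of the other 7 genes none of the 23 did so. Neighbours in such an order have the closest means, and no share over all genes was taken. The count is therefore not shown to be particular to these genes.

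**Figure D1:**
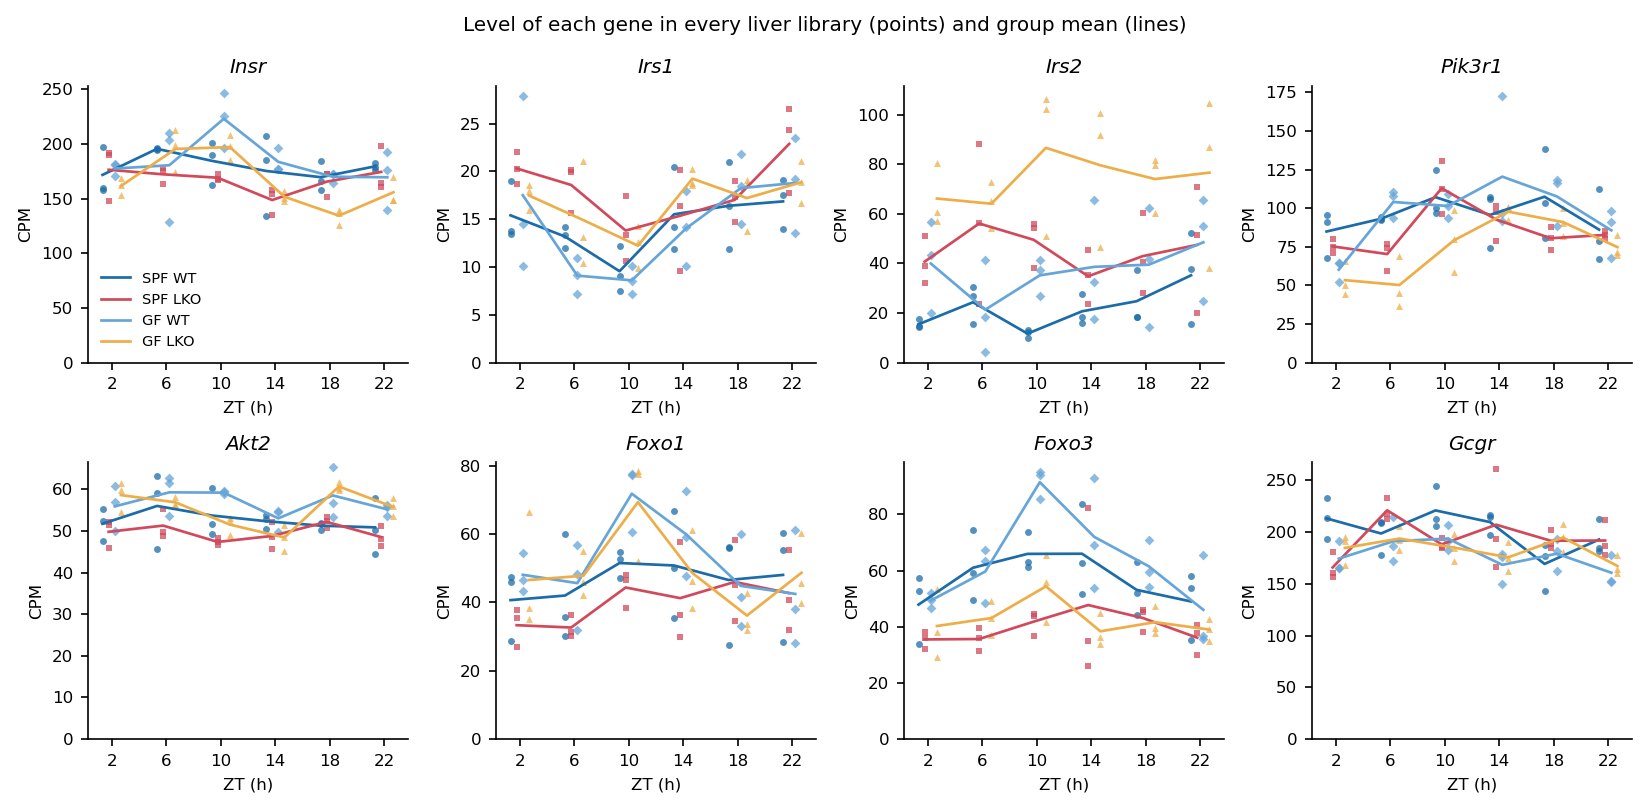
Level of each of the 8 genes in CPM (counts per 1000000, TMM scaled) against zeitgeber time in hours, with a point for each mouse and a line through the mean of 3 mice in each of the 4 groups. The means of Irs2 differ by genotype and microbial status and those of Foxo3 by genotype, while single mice of the groups overlap over the day, and Akt2 and Gcgr stay within narrow bands.

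With all times pooled, deletion of Bmal1 in SPF mice went with a change in 2 of the 8 genes, where 23.1% of all genes tested were called. Irs2 rose and Foxo3 fell. Between GF LKO and GF WT mice 3 of the 8 changed (30.8% of all genes), with Irs2 higher and Foxo3 and Pik3r1 lower. Germ free WT mice differed from SPF WT mice in 2 of the 8 (31.8% of all genes), Irs2 being higher and Gcgr lower, and GF LKO mice from SPF LKO mice in 3 (36.4% of all genes), with Irs2, Akt2 and Foxo1 higher. These shares are near those of all genes, and the results below are about single genes. The median log2 change of the 8 genes was -0.10, -0.05, 0.05 and 0.04 in these comparisons, in that order, and that of all genes lay between -0.02 and 0.01. Comparisons that share a group of libraries, such as SPF LKO against SPF WT and GF WT against SPF WT, are not independent.

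**Figure D2:**
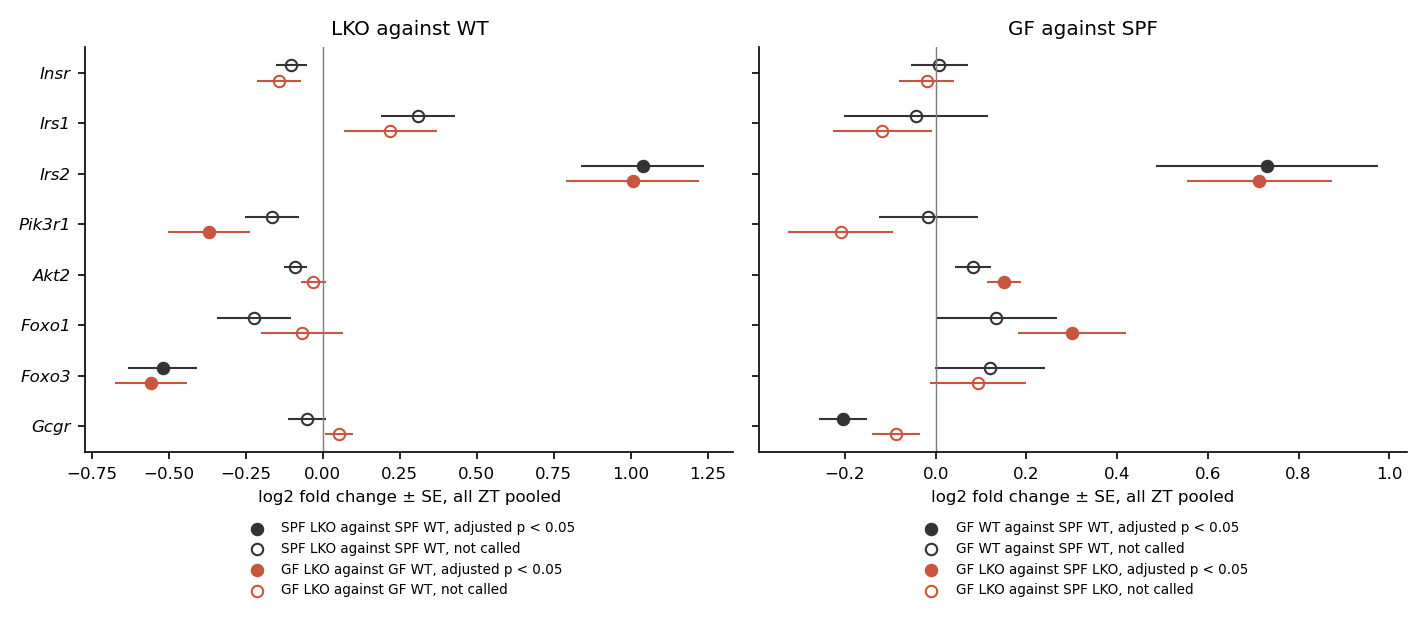
Log2 fold change of each of the 8 genes with all times pooled, in the 2 comparisons of genotype and the 2 of microbial status (18 libraries a group). Bars are standard errors and filled points have an adjusted p under 0.05. Irs2 lies at 1.04 and 1.01 for genotype, Foxo3 at -0.52 and -0.56.

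Insr, for the insulin receptor, was not called over all times. Its 18 libraries ran from 134 to 207 CPM (median 184) in SPF WT, 135 to 198 (167) in SPF LKO, 128 to 247 (179) in GF WT and 126 to 213 (160) in GF LKO mice, and these ranges over the day overlapped. The LKO change was -0.10 ± 0.05 on the log2 scale in SPF mice (adjusted p = 0.145) and -0.14 ± 0.07 in GF mice (adjusted p = 0.135), the second being called with ZT as a covariate (-0.15, adjusted p = 0.0301). At ZT18 the 3 GF LKO mice, at 137, 126 and 140 CPM, all lay below the 3 GF WT mice, at 172, 173 and 165, a fall of -0.32 ± 0.09 (adjusted p = 0.0497, called in 6 of 17 settings, with 8.43% of all genes called at that time). Insr had a 24 h rhythm in GF LKO mice, with an amplitude of 0.26 on the log2 scale and a fitted peak at 7.1 h (adjusted p = 0.000246), from a mean of 197 ± 11.5 CPM (SD, n = 3) at ZT10 down to 134 ± 7.46 at ZT18. In that group 2 of the 8 genes were rhythmic (35% of all genes). In GF WT mice the rhythm was called only without ZT6 replicate 3, which went against its label (amplitude 0.20, adjusted p = 0.00581, against 0.14 with all libraries). Between GF LKO and SPF LKO mice the rhythm of Insr differed (adjusted p = 0.0316), the only member of the 8 for which it did (4.45% of all genes), and this call was lost when any of the 3 replicate numbers was left out, with no filter on low counts, with ZT as a 6-level factor, or without the 2 SPF LKO libraries that went against their labels.

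Irs1, the adaptor with the lowest level, dipped in the late light phase. The lowest mean of every group was at ZT10, with 9.56 ± 2.42 CPM (SD, n = 3) in SPF WT, 13.8 ± 3.44 in SPF LKO, 8.61 ± 1.48 in GF WT and 12.2 ± 2.21 in GF LKO mice. The highest mean fell at ZT22 in 3 groups, reaching 16.9 ± 2.66 in SPF WT, 22.9 ± 4.61 in SPF LKO and 18.8 ± 4.97 in GF WT mice, and at ZT14 in GF LKO mice with 19.3 ± 0.892. A 24 h rhythm was called in GF WT mice, with an amplitude of 0.62 and a peak at 20.8 h (adjusted p = 0.00445), one of 3 rhythmic members there (26.7% of all genes), and in SPF LKO mice, with 0.32 and 23.9 h (adjusted p = 0.0375), the single member there (21.2% of all genes). The first call was lost without replicate 1 (adjusted p = 0.0623) or replicate 2 (0.0506), and the second without replicate 1 (0.141), 2 (0.148) or 3 (0.14), without SPF LKO ZT14 replicate 2 (0.0653) and with ZT as a 6-level factor (0.231). In SPF WT mice its amplitude was 0.32 with a peak at 20.8 h and adjusted p = 0.0836. With the filter on low counts none of the 8 genes was called rhythmic in SPF WT mice by edgeR (15% of all genes) or by DESeq2. Of the 8, 2 had an unadjusted p under 0.05, Irs1 and Foxo3. With no filter edgeR called Irs1 (adjusted p = 0.0283), Foxo3 (0.0398) and Irs2 (0.0266). No rhythm of Irs1 was shown to differ between groups.

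Over all times Irs1 had a median of 13.9 CPM in SPF WT (7.46 to 20.96), 18.2 in SPF LKO (9.59 to 26.6), 13.9 in GF WT (7.15 to 27.9) and 18.3 in GF LKO mice (9.86 to 21.1). The LKO change in SPF mice was 0.31 ± 0.12, higher at 5 of 6 times, and missed the threshold (adjusted p = 0.058). It passed in DESeq2 (adjusted p = 0.0499), with ZT as a covariate (0.0184) and without the 2 SPF LKO libraries in doubt, at 0.37 (0.015). In GF mice the change was 0.22 ± 0.15 (adjusted p = 0.293), and at ZT6, without the GF WT library in doubt, it was 0.87 (adjusted p = 0.0463).

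Irs2, for the other adaptor, moved most. Its levels ran from 9.79 to 52.4 CPM (median 17.9) in SPF WT, 20.2 to 88.2 (42.9) in SPF LKO, 4.21 to 65.7 (39.3) in GF WT and 38.1 to 106 (76.2) in GF LKO mice. The ranges of the groups overlapped, while the means stood in the order 22.0, 37.2, 45.2 and 74.5 CPM for SPF WT, GF WT, SPF LKO and GF LKO mice. LKO mice had a higher mean than WT mice at 6 of 6 times under both microbial conditions, by 1.04 ± 0.20 on the log2 scale in SPF mice (2.05-fold, adjusted p = 0.000139) and 1.01 ± 0.22 in GF mice (2.01-fold, adjusted p = 0.000317). GF mice had more Irs2 RNA than SPF mice, by 0.73 ± 0.24 in WT (1.66-fold, adjusted p = 0.0208, higher at 5 of 6 times) and 0.71 ± 0.16 in LKO mice (1.64-fold, adjusted p = 0.000689, 6 of 6). The LKO effect in GF minus that in SPF mice was -0.04 ± 0.30 (adjusted p = 0.999), with a 95% interval from -0.62 to 0.55, which leaves room for an unequal effect in either direction.

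The change of Irs2 with genotype was called in each of 13 settings in SPF mice (0.97 to 1.17) and each of 9 in GF mice (0.82 to 1.15). Leaving out all 4 libraries that went against their labels gave 1.14 in SPF mice (adjusted p = 3.97e-05), and leaving out the GF WT one gave 0.93 in GF mice (adjusted p = 0.000107). The higher Irs2 of GF WT than SPF WT mice was less stable and was lost without replicate 1 (adjusted p = 0.198) or without replicate 2 (adjusted p = 0.137). Without the libraries in doubt it was 0.83 (adjusted p = 0.0046), and the higher Irs2 of GF LKO than SPF LKO mice was 0.64 (adjusted p = 0.00178).

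At ZT10 the Irs2 difference between genotypes was clearest. SPF WT mice had 13.1, 9.79 and 12.2 CPM there and SPF LKO mice 56.03, 54.4 and 38.1, with no overlap and a 4.25-fold rise (2.09 ± 0.26, adjusted p = 9.82e-05, 11.9% of all genes called at that time). GF WT mice had 37.2, 41.6 and 26.7 CPM and GF LKO mice 106, 50.9 and 102, again without overlap (1.31 ± 0.25, adjusted p = 0.00235, 13.1% of all genes). The ZT10 level of SPF WT mice was the lowest mean of the 24, and GF WT mice exceeded it by 1.57 (adjusted p = 0.00871, 2.89% of all genes). The last 2 of these 3 calls at ZT10 were lost in a single fit of 24 group means (adjusted p 0.0932 and 0.102). At ZT2 SPF WT mice had 14.2, 17.4 and 14.7 CPM, SPF LKO mice 32, 51.2 and 38.9, and GF WT mice 20.1, 56.6 and 43.2, and Irs2 was called higher in SPF LKO (1.38 ± 0.29, adjusted p = 0.0107, 6.89% of all genes) and in GF WT mice (1.34, adjusted p = 0.0136, 10.1%). The first ZT2 call was lost without SPF WT replicate 1 (adjusted p = 0.0502), without SPF LKO replicate 1 (0.0519) and in the single fit of 24 means (0.107), and the second without SPF WT replicate 3 (0.0524) and in that fit (0.0868). With all libraries, the filter on low counts and a fit per time, the genotype difference was called at no further time. The fit of 24 means called ZT6 in GF mice (1.60, adjusted p = 0.0317). With no filter the difference was also called at ZT6, ZT14 and ZT18 in SPF mice (adjusted p 2.72e-16, 0.0198 and 1.26e-06). That setting called ZT2, ZT6, ZT14, ZT18 and ZT22 in GF mice (adjusted p 4.65e-26 to 0.000383). The log2 change at ZT6 in SPF mice was nearly the same without the filter (1.24) and with it (1.20 ± 0.58, adjusted p = 0.253). Replicates of these 2 groups overlapped there. The small p-values without the filter are therefore not taken as a measure of the spread between mice. At ZT6 the lowest Irs2 value of the study, 4.21 CPM, came from replicate 3 labelled GF WT at ZT6, against 41.3 and 18.5 in the other two. With the filter on low counts no 24 h rhythm of Irs2 was called in any of the 4 groups. The adjusted p was 0.179 and 0.69 in SPF WT and SPF LKO mice and 0.5 and 0.581 in GF WT and GF LKO mice. With no filter a rhythm was called in SPF WT mice (amplitude 0.46, adjusted p = 0.0266). Replicates at ZT22 in SPF WT mice, 52.4, 15.6 and 37.6 CPM, show how far mice of the same group differed.

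Counting each gene at each time, 4 of 48 pairs of gene and ZT were called between SPF LKO and SPF WT mice (4.92% over all genes), 5 between GF LKO and GF WT mice (7.99%) and 3 between GF WT and SPF WT mice (2.89%). Replicates of the 2 groups did not overlap in any of these 12 pairs. The same was true of pairs that were not called, such as Insr at ZT6 between SPF LKO and SPF WT mice (adjusted p = 0.532). No share over all genes was taken, so the lack of overlap adds nothing to the calls. Between GF LKO and SPF LKO mice 0 of 48 were called by edgeR (2.71%), with 12 at an unadjusted p under 0.05 and 4 called by DESeq2. For the difference between the 2 genotype effects 0 of 48 were called by edgeR (0.00742%) and by DESeq2, with 4 at an unadjusted p under 0.05. At ZT14 edgeR called 0 of 13317 genes between SPF LKO and SPF WT mice, with 1484 at an unadjusted p under 0.05 and 134 called by DESeq2, and each of these groups holds a library that went against its label at that time.

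**Figure D3:**
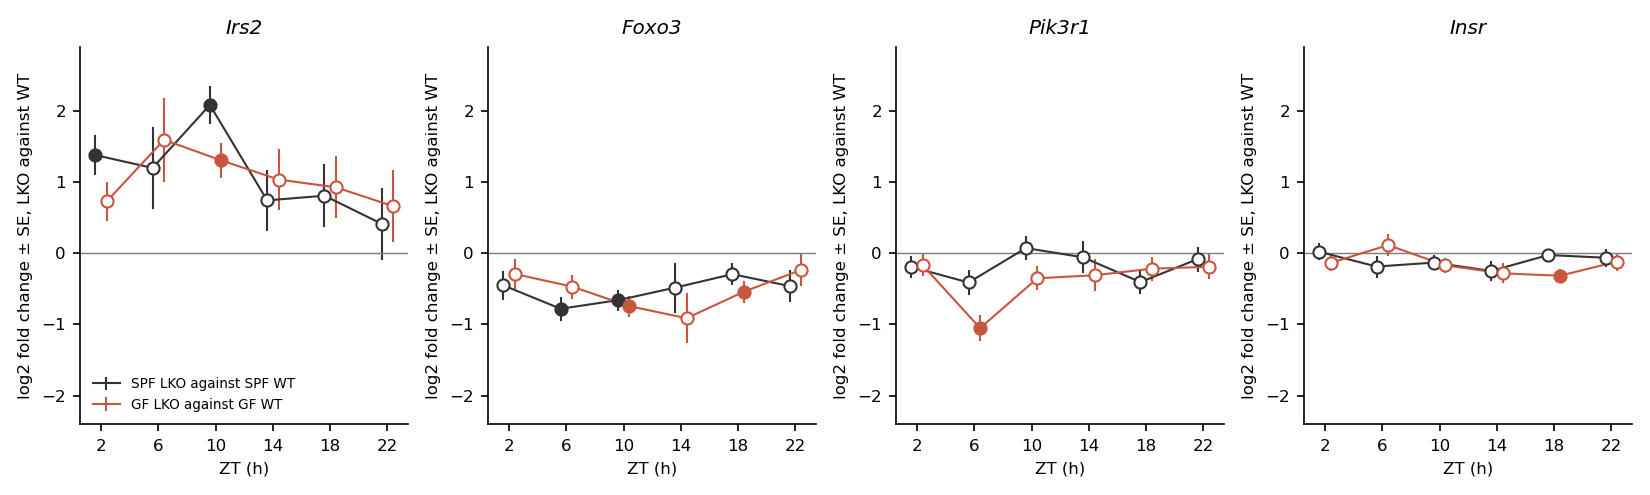
Log2 fold change of LKO against WT mice at each ZT for Irs2, Foxo3, Pik3r1 and Insr (3 mice a group), in SPF and in GF mice, with standard errors. Filled points have an adjusted p under 0.05: for Irs2, ZT2 and ZT10 in SPF and ZT10 in GF mice, and for Foxo3, ZT6 and ZT10 in SPF and ZT10 and ZT18 in GF mice.

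Irs2 RNA changed more than Irs1 RNA, and the medians of their ratio differed between the groups. The ratio of Irs1 to Irs2, both per kilobase of exon, had a median of 0.506 in SPF WT (0.232 to 0.894), 0.298 in SPF LKO (0.131 to 0.608), 0.265 in GF WT (0.133 to 1.80) and 0.145 in GF LKO mice (0.0849 to 0.303). Irs1 exceeded Irs2 in 1 of the 72 libraries, replicate 3 labelled GF WT at ZT6, which had the lowest Irs2. The groups overlapped, and no test was made on the ratios.

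**Figure D4:**
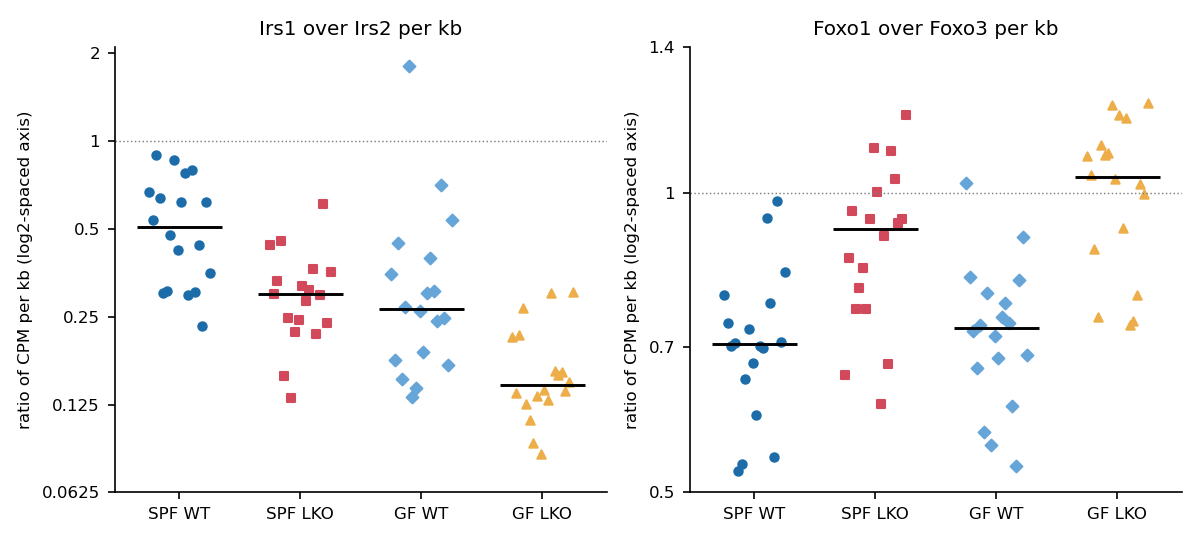
Ratio of Irs1 to Irs2 and of Foxo1 to Foxo3 per kilobase of exon in every library of the 4 groups, on log axes, with the median of 18 libraries as a bar. The median Irs1 to Irs2 ratio is 0.506 in SPF WT and 0.145 in GF LKO mice, and the median Foxo1 to Foxo3 ratio is 0.704 in SPF WT and 1.04 in GF LKO mice.

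Pik3r1, for the regulatory PI3-kinase subunit that docks on phosphorylated IRS proteins, fell in GF mice that lacked Bmal1. Its levels were 67.1 to 138 CPM (median 95.1) in SPF WT, 59.6 to 130 (80.4) in SPF LKO, 51.9 to 172 (95.4) in GF WT and 36.5 to 101 (75.97) in GF LKO mice. The change was -0.37 ± 0.13 in GF mice (adjusted p = 0.03), with a lower LKO mean at 6 of 6 times, and -0.17 ± 0.09 in SPF mice (adjusted p = 0.176). The effects were not shown to differ, since GF minus SPF was -0.21 ± 0.16 (adjusted p = 0.959). In GF mice the call was lost without replicate 2 (adjusted p = 0.0924) or without replicate 3 (adjusted p = 0.298), and without the GF WT library in doubt it was -0.36 (adjusted p = 0.0405). At ZT6 the GF LKO mice had 45.3, 36.5 and 68.9 CPM and the GF WT mice 93.5, 111 and 108, so that the groups stood apart by -1.05 ± 0.18 (adjusted p = 0.00239, 11.7% of all genes), and this was called in 17 of 17 settings. Over all times GF LKO against SPF LKO gave -0.21 ± 0.12 (adjusted p = 0.157). It was called with ZT as a covariate (-0.23, adjusted p = 0.0224) and with a replicate block (-0.25, adjusted p = 0.0377). GF WT against SPF WT gave -0.02 ± 0.11 (adjusted p = 0.926).

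Pik3r1 was rhythmic in both GF groups, though in GF WT mice the call was lost without any of the 3 replicate numbers (adjusted p 0.0527 to 0.0982). The amplitude was 0.38 with a peak at 13.3 h in GF WT mice (adjusted p = 0.0167) and 0.50 with a peak at 15.8 h in GF LKO mice (adjusted p = 0.000334). GF WT means went from 60.2 ± 7.11 CPM (SD, n = 3) at ZT2 to 120 ± 44.99 at ZT14, where 1 mouse had 172 and the other two 96.9 and 92.0, and GF LKO means from 50.2 ± 16.8 at ZT6 to 97.7 ± 4.80 at ZT14. In SPF mice the amplitudes were 0.15 in WT (adjusted p = 0.407) and 0.23 in LKO mice (adjusted p = 0.0518). The latter was called by DESeq2 (adjusted p = 0.0253), with RLE factors (0.047), with no filter on low counts (0.0394), with ZT as a 6-level factor (0.0232) and without the 2 libraries in doubt (amplitude 0.27, adjusted p = 0.0276). A difference between GF LKO and SPF LKO mice missed the threshold (adjusted p = 0.0794) and passed it in DESeq2 (0.0396). At ZT2 the GF WT mice, at 51.9, 64.3 and 64.2 CPM, lay below the SPF WT mice, at 67.7, 95.9 and 91.0 (-0.52 ± 0.15, adjusted p = 0.0476), a call made in 6 of 17 settings.

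Akt2, for the kinase, varied least. The lowest library had 44.4 and the highest 65.4 CPM. GF LKO mice (45.2 to 61.7 CPM, median 55.97) had more than SPF LKO mice (45.6 to 55.3, median 49.3), by 0.15 ± 0.04 on the log2 scale (11%, adjusted p = 0.00241, 5 of 6 times higher), and this was called in 11 of 11 settings, at 0.16 (adjusted p = 0.00189) without the 2 SPF LKO libraries in doubt. GF WT against SPF WT gave 0.08 ± 0.04 (adjusted p = 0.106), higher at 6 of 6 times. The LKO change was -0.09 ± 0.04 in SPF mice (adjusted p = 0.0861) and -0.03 ± 0.04 in GF mice (adjusted p = 0.611). No call was made at any single time, and none for a 24 h rhythm fitted by sine and cosine. With ZT as a 6-level factor a rhythm was called in GF LKO mice (adjusted p = 0.0243).

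Foxo3, for one of the FOXO factors that AKT restrains, was lower in LKO mice. Levels were 33.8 to 83.6 CPM (median 57.6) in SPF WT, 26.1 to 82.1 (38.03) in SPF LKO, 35.7 to 95.0 (61.4) in GF WT and 29.4 to 65.6 (40.6) in GF LKO mice. The change was -0.52 ± 0.11 in SPF mice (fell by 30.3%, adjusted p = 0.000572) and -0.56 ± 0.12 in GF mice (fell by 32.1%, adjusted p = 0.000231), with a lower LKO mean at 6 of 6 times in both. Its GF minus SPF difference was -0.05 ± 0.16 (adjusted p = 0.99, 95% interval -0.37 to 0.28). Microbial status gave 0.12 ± 0.12 in WT (adjusted p = 0.466) and 0.09 ± 0.11 in LKO mice (adjusted p = 0.522). The highest SPF LKO value, 82.1 CPM, came from replicate 2 labelled SPF LKO at ZT14, with 26.1 and 34.97 in the other two, and without all 4 libraries in doubt the SPF change was -0.59 (adjusted p = 2.56e-06). It was -0.43 without replicate 1 (adjusted p = 0.0502), the one setting of 13 in which the call was lost, and in GF mice it held in 9 of 9, at -0.58 (adjusted p = 0.000177) without the GF WT library in doubt.

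Within single times the genotype difference of Foxo3 was called at ZT10 under both microbial conditions. There the SPF WT mice had 73.7, 63.1 and 61.1 CPM and the SPF LKO mice 43.95, 44.7 and 36.8 (-0.66 ± 0.15, adjusted p = 0.00944). GF WT mice had 85.4, 95.0 and 94.0 and GF LKO mice 41.6, 55.9 and 65.6 (-0.74 ± 0.15, adjusted p = 0.00329). In both conditions every LKO mouse lay below every WT mouse. The SPF call at ZT10 was lost without SPF LKO replicate 3 (adjusted p = 0.0533) and in the single fit of 24 means (0.0813), whereas the GF one held in 17 of 17 settings. Further calls were at ZT6 in SPF mice (-0.78 ± 0.17, adjusted p = 0.0122, 7.26% of all genes, lost without SPF LKO replicate 3 at 0.0714) and at ZT18 in GF mice (-0.54 ± 0.15, adjusted p = 0.047, called in 10 of 17 settings). At ZT6 in GF mice the change was called without the GF WT library in doubt (-0.60, adjusted p = 0.0353). At ZT14 the change was -0.48 in SPF mice (adjusted p = 0.633) and -0.91 in GF mice (adjusted p = 0.152). Leaving out the SPF WT library in doubt there gave -0.28 (adjusted p = 0.888) and -0.91 (0.142), and leaving out the SPF LKO one gave -1.12 in SPF mice (adjusted p = 0.0235) and -0.91 in GF mice (adjusted p = 0.0179), the second because the fit at a time shares its estimate of spread over the 4 groups. Foxo3 was rhythmic in GF WT mice, with an amplitude of 0.46 and a peak at 11.5 h (adjusted p = 0.00231), from 46.02 ± 16.9 CPM (SD, n = 3) at ZT22 to 91.5 ± 5.31 at ZT10, and the call was lost without replicate 2 (adjusted p = 0.0743). The amplitude was 0.27 in SPF WT (adjusted p = 0.09), 0.23 in SPF LKO (adjusted p = 0.242) and 0.17 in GF LKO mice (adjusted p = 0.239), and no difference of rhythm was called, the GF LKO against GF WT one having adjusted p = 0.244.

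Foxo1, for the FOXO factor best known for driving liver glucose production, was not called between genotypes. Its levels were 27.5 to 66.8 CPM (median 48.8) in SPF WT, 26.98 to 58.2 (37) in SPF LKO, 28.1 to 77.5 (51.4) in GF WT and 31.96 to 78.4 (45.9) in GF LKO mice. The LKO change was -0.22 ± 0.12 in SPF mice (adjusted p = 0.183, 95% interval -0.46 to 0.01) and -0.07 ± 0.13 in GF mice (adjusted p = 0.743, -0.33 to 0.19). GF LKO mice had more than SPF LKO mice (0.30 ± 0.12, adjusted p = 0.0436, higher at 5 of 6 times), which was lost without replicate 1 (adjusted p = 0.254), without replicate 3 (0.248), with no filter on low counts (0.0686) and without SPF LKO ZT18 replicate 1 (0.0605). It held without SPF LKO ZT14 replicate 2 (0.34, adjusted p = 0.0217) and without both of these libraries in doubt (0.33, adjusted p = 0.0306). With the filter on low counts and all libraries edgeR called no rhythm. The adjusted p was 0.077 in GF WT mice (0.0447 in DESeq2 and 0.0237 without GF WT ZT6 replicate 3). In that group the mean was highest at ZT10 with 71.8 ± 9.66 CPM (SD, n = 3). With no filter a rhythm was called in GF WT (adjusted p = 0.0105) and GF LKO mice (0.0103), and in GF WT mice also with a replicate block (0.0157).

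Beside the lower Foxo3, the ratio of Foxo1 to Foxo3 per kilobase of exon had medians of 0.704 in SPF WT, 0.918 in SPF LKO, 0.731 in GF WT and 1.04 in GF LKO mice. Foxo1 exceeded Foxo3 in 0, 5, 1 and 11 of the 18 libraries of these groups. Across the 24 means of group and ZT the 2 genes went together, with Pearson's r = 0.673, and both values of each point come from the same 3 libraries. Irs1 ran against Foxo3 (r = -0.761), Irs2 less so (r = -0.538) and Insr with it (r = 0.612). These are descriptions over 24 points that share libraries.

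Gcgr, for the glucagon receptor, kept a high and even level of 143 to 261 CPM. GF WT mice (150 to 215 CPM, median 178) had less than SPF WT mice (143 to 245, median 207), a change of -0.20 ± 0.05 (adjusted p = 0.00365), with a lower mean at 5 of 6 times, and the call was lost without replicate 2 (adjusted p = 0.0538) and held without the libraries in doubt (-0.20, adjusted p = 0.0076). GF LKO against SPF LKO gave -0.09 ± 0.05 (adjusted p = 0.198). Genotype gave -0.05 ± 0.06 in SPF mice (adjusted p = 0.584) and 0.05 ± 0.05 in GF mice (adjusted p = 0.412). At ZT2 the SPF LKO mice, at 161, 180 and 157 CPM, lay below the SPF WT mice, at 233, 214 and 193, but the change of -0.38 ± 0.11 missed the threshold (adjusted p = 0.054). DESeq2 called it (adjusted p = 0.0124), as it did GF WT against SPF WT at that time (-0.31, adjusted p = 0.0445). By edgeR with all libraries and a fit per time, no single time was called for Gcgr, and no rhythm was called. The single fit of 24 means called both of these differences at ZT2 (adjusted p = 0.022 and 0.0429).

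For all 8 genes the difference between the genotype effects of GF and SPF mice was not called. With edgeR 0 of 8 passed (0.438% of all genes), none had an unadjusted p under 0.05, the lowest being 0.192 for Gcgr, and DESeq2 also called 0. The difference in 24 h rhythm was called for 0 of 8 genes in SPF LKO against SPF WT (1.02% of all genes), GF LKO against GF WT (5.81%) and GF WT against SPF WT mice (0.0355%), by edgeR and by DESeq2, with 0, 1 and 0 members at an unadjusted p under 0.05.

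All 10709 genes whose mean log2 CPM reached 1 were ranked by the correlation of their 24 means with each member. Irs2 was most like Prlr, for the prolactin receptor (r = 0.927), Gstm7 (0.906) and Proser2 (0.903), and Irs1 most like Pnkd (0.919). Foxo3 was most like Mknk2, for a kinase that phosphorylates the translation factor eIF4E (0.944), Lpin2, for a phosphatidate phosphatase (0.939), and Gne, for an enzyme of sialic acid synthesis (0.938). Foxo1 was most like Lpin1 (0.881) and Il6ra (0.88), Pik3r1 like Ppp1r15b (0.904) and Alas1 (0.882), Insr like Rmnd5a (0.885), Akt2 like Dcaf11 (0.841) and Gcgr like Miip (0.847).

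The wider pathway was read from 5 lists of 126 genes that leave out the 8, of which 122 were tested. Between SPF LKO and SPF WT mice 15 of the 122 rose and 22 fell (30.3% called, against 23.1% of all genes), and between GF LKO and GF WT mice 20 rose and 26 fell (37.7%, against 30.8%). In both, 13 of these genes rose and 17 fell. The share of all genes called in both is not given, so the overlap is not shown to be particular to these lists. For microbial status 34 genes were called in WT (27.9%, against 31.8% of all genes) and 48 in LKO mice (39.3%, against 36.4%). The genotype effect in GF minus SPF mice was called for 0 of the 122 by edgeR (0.438% of all genes), the one tool run on the lists, with 6 at an unadjusted p under 0.05. The median log2 change of the 122 was -0.06 in both genotype comparisons.

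**Figure D5:**
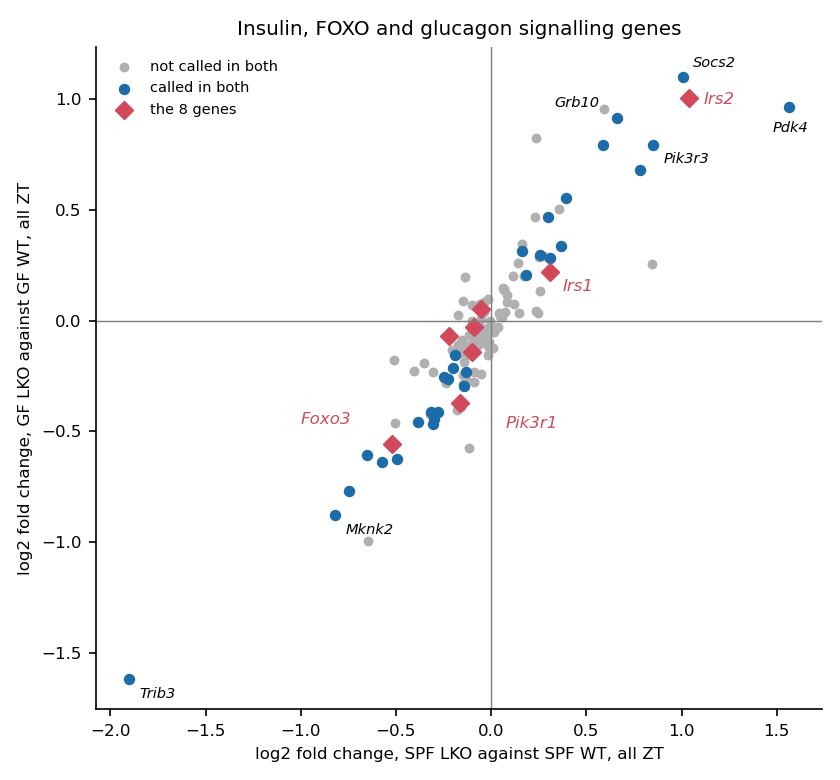
Log2 fold change of LKO against WT mice with all times pooled, in SPF mice (horizontal) and GF mice (vertical), for 122 genes of 5 lists around insulin, FOXO and glucagon signalling and for the 8 genes. Blue points, 30 in number, have an adjusted p under 0.05 in both and lie at the lower left or upper right, where both changes have the same sign. The share of all genes that did so is not given. Irs2 lies beside Socs2 at the upper right and Foxo3 at the lower left.

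In the genotype comparisons 23.1% of all genes were called in SPF and 30.8% in GF mice. Among 23 genes tested between the receptor and AKT, 1 rose and 5 fell in SPF LKO mice (26.1% called). In GF LKO mice 1 rose and 6 fell (30.4%). The riser in both was Pik3r3, for another regulatory PI3-kinase subunit, by 0.85 ± 0.12 (adjusted p = 9.66e-07) under SPF and 0.80 ± 0.14 (adjusted p = 3.03e-05) under GF conditions. Gab1, encoding a docking protein that recruits PI3-kinase, fell (-0.30 and -0.44). Of 24 brakes on insulin signalling, 4 rose and 4 fell in SPF LKO mice (33.3%) and 5 rose and 6 fell in GF LKO mice (45.8%). Trib3, for a pseudokinase that binds AKT, had the largest fall named, -1.90 ± 0.31 (adjusted p = 1.18e-05) under SPF and -1.62 ± 0.29 (adjusted p = 2.44e-05) under GF conditions. Socs2, for a suppressor of cytokine signalling best known in the growth hormone pathway, rose by 1.01 ± 0.34 (adjusted p = 0.0275) and 1.10 ± 0.40 (adjusted p = 0.0323), and Grb10, for an adaptor that inhibits the insulin receptor, by 0.66 and 0.92.

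Of 27 genes in the FOXO list, 4 rose and 5 fell in SPF LKO mice (33.3%, against 23.1% of all genes). In GF LKO mice 8 rose and 6 fell (51.9%, against 30.8%). Pdk4, for a kinase that shuts off pyruvate dehydrogenase and a FOXO target, rose by 1.56 ± 0.31 (adjusted p = 0.000244) under SPF and 0.97 ± 0.27 (adjusted p = 0.00473) under GF conditions. Sgk1, for a kinase that phosphorylates FOXO factors, rose by 0.59 and 0.79, and Sgk2 of the same family fell (-0.75 and -0.77). Txnip, for a protein that restrains glucose uptake, fell (-0.65 and -0.61). Members of this list therefore moved in both directions. Of 21 effectors of AKT, GSK3 and mTORC1, 1 rose and 3 fell in SPF and 1 rose and 4 fell in GF LKO mice, with Mknk2 at -0.82 and -0.88 and Eif4ebp1, for a repressor of translation, at -0.28 and -0.41. Of 27 glucagon signalling genes 5 rose and 5 fell in SPF and 5 rose and 4 fell in GF LKO mice. Prkaca, for a catalytic subunit of protein kinase A, rose by 0.37 and 0.34, the cyclic AMP phosphodiesterase genes Pde4b and Pde4d went apart, at 0.78 and 0.68 against -0.58 and -0.64, and Adcy6, for an adenylate cyclase, fell (-0.30 and -0.47).

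Of 27 genes in the FOXO list, 5 rose and 1 fell in GF WT mice against SPF WT (22.2%, against 31.8% of all genes). In GF LKO mice against SPF LKO 10 rose and 4 fell (51.9%, against 36.4%). Igfbp1, of the 5 lists, rose by 1.51 ± 0.27 in LKO mice (adjusted p = 3.55e-05). It was not called in WT mice (0.91 ± 0.41, adjusted p = 0.0844). Among list genes called in both WT and LKO mice, the largest changes with microbial status were in glucagon signalling. Adcy1, for an adenylate cyclase, rose in GF mice by 1.15 ± 0.29 in WT (adjusted p = 0.00268) and 1.53 ± 0.26 in LKO mice (adjusted p = 2.65e-05), and Pde4a, for a phosphodiesterase, fell, with -1.19 ± 0.19 (adjusted p = 1.19e-05) and -1.41 ± 0.14 (adjusted p = 9.52e-10). Among the brakes, Ahsg, for fetuin-A, a secreted inhibitor of the insulin receptor, rose by 0.46 and 0.65 and Grb14, for an adaptor that inhibits the receptor, by 0.25 and 0.43, while Prkcd, for a protein kinase C, fell (-0.77 and -0.53). Between receptor and AKT, Igf1r, for the IGF1 receptor, fell (-0.49 and -0.35), as did Pik3cd, for the PI3-kinase catalytic subunit of leukocytes (-0.78 and -0.69). The neutrophil markers, at summed medians of 2.716 CPM in SPF WT and 2.832 in SPF LKO against 1.806 in GF WT and 1.157 in GF LKO mice, were lower in the same comparisons. Of these 5 markers 4 had a median under 1 CPM in each group, and 2 were tested. Of 5 Kupffer cell markers 0 were called lower with germ free status in WT and 1 in LKO mice. The part of these cells in the changes was not tested.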

How the data were processed

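Whole-liver RNA of 72 mice, 3 per group and ZT, was measured by RNA-seq (Illumina Stranded mRNA Prep, single-end reads). The authors aligned reads with STAR 2.6.1b to mm10 (GRCm38) and counted them over exons by gene with featureCounts 2.0.0 and the Ensembl 97 annotation, without strand and without reads that mapped to several places or overlapped several genes. The values the authors deposited are these raw counts, from 17369927 to 22076113 per library. Groups, ZT and replicate numbers came from the labels, and 0 sample columns were left unused.

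Members and gene lists were chosen with earlier results of these data known. Counts were scaled by TMM, filtered by filterByExpr and tested by the quasi-likelihood test of edgeR 4.0.16 (R 4.3.3) with Benjamini-Hochberg adjustment at 0.05: pairs of groups over all ZT (36 libraries), the genotype effect in GF minus SPF mice (72), 4 group means within a ZT (12), and sine and cosine terms of 24 h within a group (18) or between groups (36). The amplitude is from mean to peak. CPM were TMM-scaled, and log2 CPM used a prior count of 2. List genes to name were picked from those called in both comparisons of a contrast with the same sign. These were the 2 largest in each direction per list by their mean log2 change, and not all of them are named. Igfbp1 was named for microbial status outside this rule. The tests were tested on simulated data. Alternatives were DESeq2 1.42.0, RLE factors, no filter, ZT as a covariate or factor, a single fit of 24 means, a replicate block and libraries left out. Leaving out the SPF WT and GF WT libraries one by one was chosen after seeing the data. Mice were separate animals. Replicate numbers did not pair mice. Promoter windows came from RefSeq (GRCm38.p6). Gene symbols were found for 55394 of 55573 genes. Figures and summaries used Python 3.11.15.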

Additional observations from a re-analysis of the deposited data

How the results depend on the processing

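Scaling by RLE factors changed the call of 1 value of a single gene, DESeq2 brought 11 calls, the absence of a filter on low counts brought 43 calls and lost 3, and no direction of a called value reversed. Counts of genes changed over all ZT stayed within 1.5 times under these settings. Within single ZT, tests with no filter called 10 pairs of gene and ZT in SPF LKO against SPF WT (4 in the report), 13 in GF LKO against GF WT (5), 9 in GF WT against SPF WT (3), 11 in GF LKO against SPF LKO (0) and 3 for the genotype effect in GF minus SPF mice (0), with adjusted p down to 4.62e-43, and the cause was not tested. A single fit of 24 group means called 1 pair in GF WT against SPF WT (3). That pair was Gcgr at ZT2 (adjusted p = 0.0429), and the 3 pairs of the report were all lost in this fit. In GF LKO against SPF LKO DESeq2 called 4. For 24 h rhythms, no filter gave 3 genes in SPF WT (0), 2 in SPF LKO (1) and 4 in GF LKO mice (2), and DESeq2 and RLE factors each gave 2 in SPF LKO mice. With ZT as a 6-level factor the 1 gene in SPF LKO mice was Pik3r1 and not Irs1. The difference in rhythm of GF LKO against SPF LKO mice was called for 2 genes by DESeq2 and 0 with a 6-level factor (1).

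Leaving out a replicate number or a library gave 1 to 3 genes over all ZT in SPF LKO against SPF WT, 2 to 3 in GF LKO against GF WT, 0 to 2 in GF WT against SPF WT, 2 to 4 in GF LKO against SPF LKO and 0 to 0 for the genotype effect in GF minus SPF mice. Within ZT, in the same order, it gave 3 to 5, 3 to 7, 1 to 3, 0 to 2 and 0 to 0 pairs. In GF LKO against GF WT mice 3 pairs were left without any 1 of 5 ZT18 libraries (GF WT replicates 1 and 2, GF LKO replicates 1 to 3), in GF WT against SPF WT mice 1 without SPF WT ZT2 replicate 3, and in GF LKO against SPF LKO mice 2 pairs were called without GF WT ZT2 replicate 1. It gave 0 to 0 rhythmic genes in SPF WT, 0 to 2 in SPF LKO, 0 to 5 in GF WT and 2 to 2 in GF LKO mice, and 0 to 1 different rhythms in GF LKO against SPF LKO mice. Without the libraries that went against their labels, 2 genes were rhythmic in SPF LKO and 5 in GF WT mice, and no rhythm differed between GF LKO and SPF LKO mice.

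Same-numbered mice did not deviate together: 5 of 18 pairs had a correlation over 0.1 in each comparison (medians -0.001 to -0.024). With the replicate block the counts over all ZT were 3, 4, 2, 4 and 0, those within ZT 4, 4, 3, 1 and 0, those of rhythms 0, 1, 4 and 2, and those of differences in rhythm 0, 0, 0 and 1, each in the order of the report.

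With 3 mice a group at a time, and coefficients of variation near 36.1% for Irs2, changes of moderate size within a ZT can be missed. Irs1, with 116 to 625 counts a library, and Irs2, with 73 to 2106, had the fewest counts.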
